A study of Mus musculus with 140 samples.

Results

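The genes described here encode the machinery of the lysosome, the acidic compartment in which cells digest proteins, glycans, lipids and sulfated polymers. The list held 41 genes grouped by function. Of these, 40 had a probe set that the annotation assigns to 1 gene alone, out of 18193 genes with such a probe set, and 38 were above a filter on low signal, out of 14560. Where a gene had several, the brightest on average stood for it. Cd63 was not analysed here. Ctss (cathepsin S, a cysteine protease of antigen-presenting cells) and Galc (galactosylceramidase) did not pass: Ctss signals reached at most 214.5 and Galc signals at most 228.4, below the median of the A arrays (283.3) in all 70 samples. The 38 genes comprised 9 proteases, 11 glycosidases, 8 sulfatases, phosphatases, lipases and thioesterases, 5 activators and lipid transfer proteins, and 5 membrane proteins.

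The cells were CCE, a male mouse embryonic stem cell line of 129/Sv origin. In 7 courses the cells carried a short hairpin RNA (shRNA) against Nanog, Oct4 (gene Pou5f1), Sox2, Esrrb, Tbx3, Tcl1 or a transcript labelled Mm343880, and in an eighth they carried the vector without a hairpin. All of these cells stayed in leukaemia inhibitory factor (LIF, 1000 units per ml), and GFP-positive cells were sorted each day, with day 0 set at 48 hours after transduction. The ninth course was kept without LIF in 5 µM retinoic acid, an agent that drives differentiation, and its cells, per the labels, were neither transduced nor sorted. Samples were taken on days 0 to 7 (8 in each of 7 courses) or, for the Mm343880 and retinoic acid courses, on days 0 to 6 (7 in each). Each RNA went onto both arrays of the MOE430 pair (A and B), giving 70 samples and 140 arrays. There was 1 sample per course and day and no second transduction, so p-values here reflect how far samples scatter about a fitted time course, and some of that scatter may be technical. In such bulk RNA fewer cells of a type and less RNA per cell cannot be told apart.

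Lysosomal enzymes are made in the endoplasmic reticulum, tagged with mannose 6-phosphate in the Golgi, and carried to the lysosome by mannose 6-phosphate receptors. Cathepsins cut proteins, glycosidases remove sugars one at a time from glycoproteins and glycolipids, sulfatases and lipases act on sulfated sugars and lipids, and saposins (made from prosaposin, Psap) lift lipids out of membranes for the hydrolases. Many of these genes share a short promoter element, often called the CLEAR element, whose core is the E-box CACGTG. It is bound by TFEB, TFE3 and MITF, basic helix-loop-helix factors that act in the response of the lysosome to nutrient supply.

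The 250 bases before the start of each gene were searched for CACGTG (a palindrome, so the same on both strands) in RefSeq promoters of build GRCm38.p6. Of the 41 listed genes, 37 had a promoter in this table (41 windows), and 11 of them (29.7%) held the letters, against 7.61% of 17492 protein-coding genes and 9.44% of the 11689 tested genes with a promoter. The longer TCACGTG, searched on both strands and always overlapping a CACGTG, was found in 10 of the 37 genes (27.0%), against 4.16% and 5.39%. The 11 genes were Gla, Arsa, Glb1, Cln3, Ctsd, Ctsl, Gaa, Lamp1, Ctsa, Lgmn and Naglu. A match is a description of the sequence, and binding was not measured. Below are 5 promoters, chosen because these genes recur in the results: Glb1 was lower in all 8 comparisons with the empty vector and Gla in 6, Lgmn was called in both directions, Ctsd was higher after Oct4 and Sox2 knockdown, and Lamp1 holds the most copies of the 5. Each reads 5′ to 3′ and ends at the base before the gene start, with CACGTG in capitals.
Glb1 (chr9:114400828-114401077, plus strand): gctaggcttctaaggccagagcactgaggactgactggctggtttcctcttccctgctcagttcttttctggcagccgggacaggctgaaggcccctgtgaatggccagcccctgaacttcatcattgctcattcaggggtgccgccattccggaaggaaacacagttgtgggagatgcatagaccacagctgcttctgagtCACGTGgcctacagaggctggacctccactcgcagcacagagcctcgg
Gla (chrX:134601006-134601255, minus strand): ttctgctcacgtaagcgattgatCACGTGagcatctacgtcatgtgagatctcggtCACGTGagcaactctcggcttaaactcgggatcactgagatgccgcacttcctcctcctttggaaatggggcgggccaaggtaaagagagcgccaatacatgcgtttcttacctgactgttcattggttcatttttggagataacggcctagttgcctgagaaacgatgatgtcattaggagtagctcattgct
Lgmn (chr12:102439093-102439342, minus strand, 1 of 2 start sites in the table): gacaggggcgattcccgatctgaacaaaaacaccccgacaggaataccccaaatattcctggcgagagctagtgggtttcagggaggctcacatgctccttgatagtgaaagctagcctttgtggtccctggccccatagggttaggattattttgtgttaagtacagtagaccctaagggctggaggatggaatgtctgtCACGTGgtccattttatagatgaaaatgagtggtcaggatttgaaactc
Ctsd (chr7:142387828-142388077, minus strand): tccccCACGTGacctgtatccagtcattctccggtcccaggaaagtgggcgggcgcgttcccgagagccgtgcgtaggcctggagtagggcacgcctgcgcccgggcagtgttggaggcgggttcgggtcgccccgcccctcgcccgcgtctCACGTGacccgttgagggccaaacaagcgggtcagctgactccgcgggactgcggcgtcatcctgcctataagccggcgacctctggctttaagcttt
Lamp1 (chr8:13158911-13159160, plus strand): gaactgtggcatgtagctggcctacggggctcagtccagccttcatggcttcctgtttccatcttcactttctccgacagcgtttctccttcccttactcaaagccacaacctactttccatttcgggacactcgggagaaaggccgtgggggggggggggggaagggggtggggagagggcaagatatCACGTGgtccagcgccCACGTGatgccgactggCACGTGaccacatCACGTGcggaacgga
The Lamp1 window held 4 copies, beginning 61, 45, 28 and 15 bases before the start, while the single copy of Glb1 began 48 and that of Lgmn 49 bases before it. The same window of Manba, the gene with the lowest late differences below, held none, which says only that these letters are not in it.

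The targeted genes were checked first, in every sample. Nanog signals ran from 877.2 to 1644.1 in the Nanog course against 6576.5 to 8313.5 in the empty vector, Pou5f1 from 1547.4 to 5228.4 in the Oct4 course against 14625.9 to 17589.9, and Sox2 from 496.1 to 1889.8 against 3691.4 to 6093.6. Esrrb ran from 287.5 to 640.3 against 4682.3 to 6929.9, Tbx3 (on the B array) from 11.3 to 651.9 against 667.8 to 1639.3, and Tcl1 from 596.1 to 1125.4 against 1791.6 to 3986.7. Each course was therefore below the empty vector at its own target in every sample; the Mm343880 transcript was not analysed here. The median signal of an array lay between 236.05 and 382.9 for A arrays and between 64.4 and 128.4 for B arrays. On day 5 the median of the 38 lysosomal genes was below that of both day 4 and day 6 in 8 of 9 courses (all but Oct4), and the median of all genes in 5 of 9. In the empty vector course the lysosomal median, as log2 against each gene's mean in that course, was 0.133 on day 4, -0.169 on day 5 and 0.313 on day 6. Counts that leave out day 5 are given below where they move by more than 1.5 times.

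**Figure D1:**
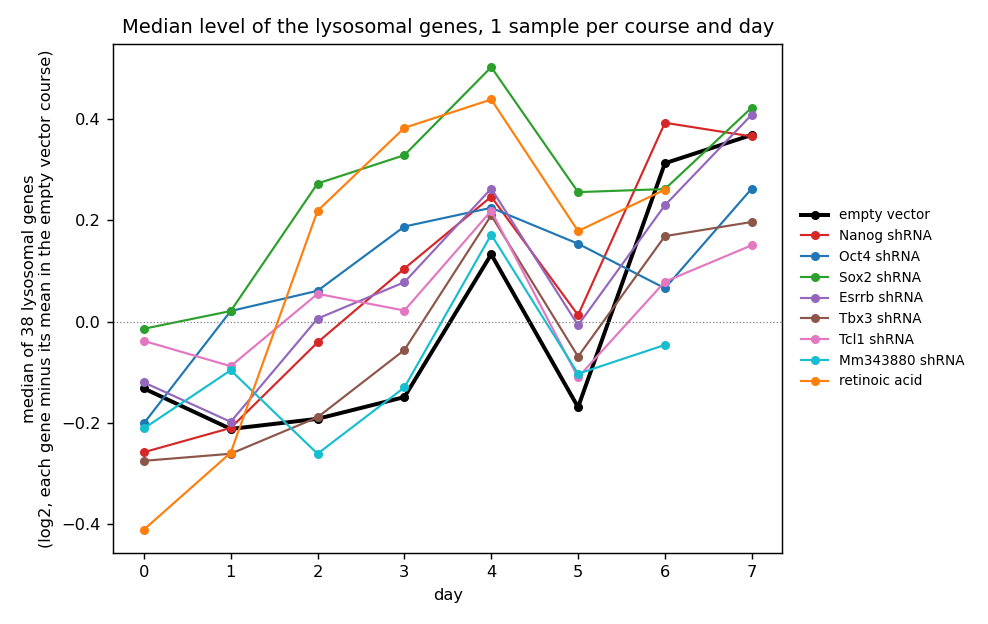
Median level of the 38 lysosomal genes (y axis, log2, each gene relative to its mean in the empty vector course) by day (x axis), with 1 point per sample and 1 line per course. The empty vector course (thick black line) falls from 0.133 on day 4 to -0.169 on day 5 and returns to 0.313 on day 6, and most other courses dip on day 5 too.

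Lysosomal genes were called in both directions in every knockdown. The late difference is the mean of the fitted curve over days 4, 5 and 6 minus that of the empty vector, on the scale log2(signal + pseudocount); a gene was called at a Benjamini-Hochberg adjusted p under 0.05 in limma, adjusted over all 14560 genes. All courses were compared with the same empty vector samples, so their values are given side by side and are not independent of each other. After Sox2 knockdown 14 lysosomal genes were higher and 5 lower, beside 12.1% and 12.2% of all genes. After Nanog knockdown 9 were higher and 4 lower (12% and 10% of all genes), and after Oct4 knockdown 7 and 5 (6.66% and 10.7%). After Esrrb knockdown 4 were higher and 2 lower (7.44% and 5.3%), after Tbx3 knockdown 2 and 3 (6.24% and 5.69%), and after Tcl1 knockdown 3 and 3 (5.05% and 4.05%). With the Mm343880 hairpin 3 were higher and 7 lower (7.55% and 7.18%), and in retinoic acid 13 were higher and 9 lower (27.5% and 23.5%).

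As shares of the 38 genes, the higher calls came to 36.8% for Sox2, 23.7% for Nanog, 18.4% for Oct4 and 34.2% for retinoic acid, and the lower calls to 18.4% for Mm343880. The median late difference of the 38 genes was 0.263 for Sox2 (all genes -0.035), 0.186 for Nanog (all genes 0.042), 0.173 for Oct4 (all genes -0.1) and 0.122 for Esrrb (all genes -0.018). It was 0.032 for Tbx3 (all genes -0.057), -0.054 for Tcl1 (all genes -0.063), -0.156 for Mm343880 (all genes -0.017) and 0.159 for retinoic acid (all genes 0.04). Over the 7 knockdowns 14 genes were only ever called higher, 8 only lower, and 2 (Gaa and Lgmn) higher in some and lower in others. The same tally over all genes was not made, so this split cannot be read as particular to lysosomal genes. In single knockdowns 5.05% to 12.1% of all genes were called higher and 4.05% to 12.2% lower. By the probe sets used, no call was made in any knockdown for 14 genes: Ctsa, Ctsh, Ctsz, Neu1, Hexa, Fuca1, Naglu, Idua, Arsb, Arsa, Ppt1, Npc1, Npc2 and Lamp2. Of the 38 genes 25 had other probe sets that were tested (41 in all). Over 84 pairs of a called late difference and another probe set of its gene, the other probe set had the same sign in 60 and passed with that sign in 26, and passed with the opposite sign in 0. Without day 5 the higher calls were 3 for Nanog, 3 for Oct4, 9 for Sox2, 1 for Esrrb, 1 for Tbx3, 1 for Tcl1 and 1 for Mm343880, and the lower calls for Sox2 were 3. Without day 6, the last day of the Mm343880 and retinoic acid courses, Mm343880 had 0 higher and 1 lower and retinoic acid 7 and 5, and Oct4 had 3 lower. Other single days changed 3 of these counts: without day 3 Mm343880 had 4 lower, without day 4 Sox2 had 3 lower, and without any of days 2, 3, 4, 6 or 7 Tbx3 had 1 higher. Leaving out a day leaves fewer samples for every gene. The shares over all genes are not given here for these or later counts with a day left out. Such counts therefore do not show whether lysosomal genes depend on a day more than other genes do.

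**Figure D2:**
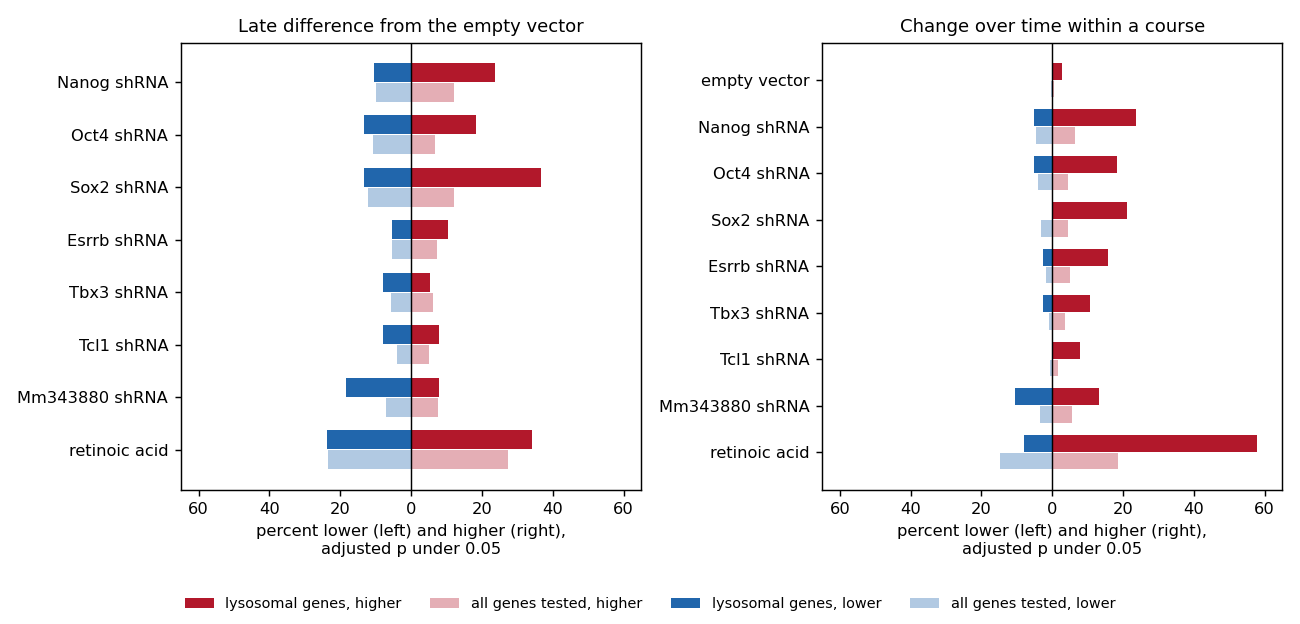
Percent of the 38 lysosomal genes (dark bars) and of all 14560 genes tested (pale bars) that passed an adjusted p of 0.05, lower to the left and higher to the right, for the late difference from the empty vector (left panel) and the change over time within a course (right panel). The Sox2 course has the longest dark bar to the right among the knockdowns on the left panel (14 of 38 genes), and retinoic acid on the right panel (22 of 38).

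**Figure D3:**
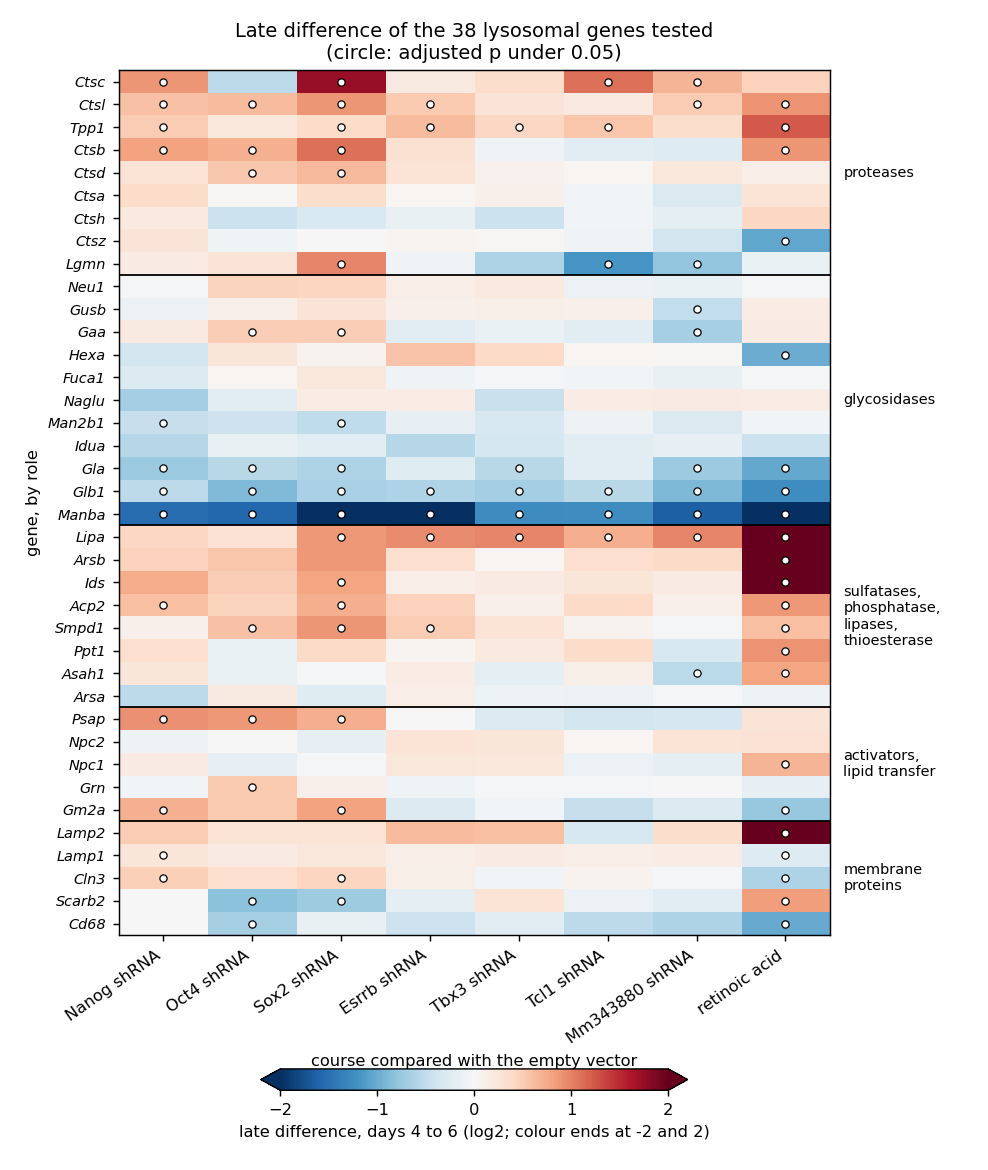
Late difference from the empty vector (log2, colour, ending at -2 and 2) of the 38 lysosomal genes (rows, by role) in 8 courses (columns); circles mark adjusted p under 0.05. Manba and Glb1 are blue with a circle in all 8 columns, and Psap and Ctsb have circles in the Nanog, Oct4 and Sox2 columns.

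The glycosidases held the largest falls. Manba, the lysosomal beta-mannosidase that removes the last mannose of N-linked glycans, was lower in all 7 knockdowns and in retinoic acid. In the empty vector its signal was 3331.8, 2800.3, 3271.9, 3670.5, 2585.8, 3473.5, 4106.7 and 4207.0 on days 0 to 7. In the Esrrb course it was 2366.5, 1344.6, 742.5, 735.7, 549.4, 735.2, 837.0 and 779.2, and in the retinoic acid course 2788.6, 708.0, 474.2, 309.1, 311.5, 244.5 and 353.0 on days 0 to 6. The fall thus ran over the first days of both courses. No sample of the Esrrb course, and no retinoic acid sample after day 0, overlapped with the empty vector. In the Sox2 course Manba was low from the start, at 513.1, 262.7, 255.8, 465.0, 389.8, 547.1, 701.4 and 669.8.

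The Nanog course went from 3009.4 on day 0 to 1259.5, 973.3 and 1326.6 on days 4, 5 and 6, and the Tbx3 course from 3189.8 to 1467.0, 1382.8 and 1428.6. The late difference of Manba was -2.48 ± 0.17 (SE) in the Sox2 course (adjusted p = 1.719e-15, limma), -2.17 in the Esrrb course, -1.64 in the Mm343880 course, -1.57 in the Oct4 course, -1.53 in the Nanog course, -1.25 in the Tbx3 course and -1.24 in the Tcl1 course. In retinoic acid it was -3.25 ± 0.17 (adjusted p = 2.135e-20, limma), the lowest late difference of the 38 genes in that course. Against the mean of the other knockdowns Manba was lower in the Sox2 course (-0.91 ± 0.13, adjusted p = 5.43e-07) and in the Esrrb course (-0.55 ± 0.13, adjusted p = 0.003586). The Sox2 and Esrrb courses differed from each other by -0.31 ± 0.17, which did not pass (adjusted p = 0.237). On days 0 and 1 Manba was already lower in the Sox2 course (-2.84 ± 0.20, adjusted p = 7.799e-14), and to a smaller degree in the retinoic acid (-1.02), Esrrb (-0.82) and Oct4 (-0.73) courses. These values rest on 1 probe set, the sole one tested for Manba.

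Glb1, the beta-galactosidase that is also the source of senescence-associated galactosidase activity, was lower in the same 8 comparisons by smaller amounts. Its signal in the empty vector was 1490.8, 1452.4, 1378.5, 1534.2, 1641.4, 1499.0, 1457.3 and 1641.1 on days 0 to 7. In the Nanog course it was 1523.6, 1471.5, 1323.7, 1323.2, 1060.1, 1029.8, 1065.2 and 1045.9. These courses started together, and from day 2 on every Nanog sample was below every empty vector sample. In the Oct4 course it was lower on every day, from 1111.6 on day 0 to 734.0, 830.7 and 792.6 on days 4, 5 and 6. Late differences ran from -0.52 ± 0.14 in the Nanog course (adjusted p = 0.006083, limma) to -0.90 ± 0.14 in the Mm343880 course (adjusted p = 1.601e-05), and reached -1.24 ± 0.14 in retinoic acid, where Glb1 was already at 684.5 on day 0. Without day 5 the calls in the Tbx3 and Tcl1 courses did not pass, and without day 6 that in the Mm343880 course. The Tbx3 value on day 5, 621.4, was the lowest of that course, whose other days ran from 1007.4 to 1515.5.

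Gla, the alpha-galactosidase whose loss causes Fabry disease, was lower in 5 knockdowns and in retinoic acid. Signals in the empty vector ranged from 472.4 to 758.4, and in the Nanog course they were 383.9, 318.7, 277.7, 320.5, 335.6, 365.3, 280.7 and 295.7, below all empty vector values. The late difference was -0.74 ± 0.15 in the Nanog course (adjusted p = 0.0002431), -0.72 in the Mm343880 course, -0.62 in the Sox2 course, -0.56 in the Oct4 course and -0.55 in the Tbx3 course; the last did not pass without day 4 or day 6, and those of the Oct4 and Mm343880 courses did not pass without day 6. In retinoic acid it was -1.02 ± 0.15 (adjusted p = 2.237e-07). Among the other glycosidases, Man2b1 (an alpha-mannosidase) was lower in the Nanog (-0.46) and Sox2 (-0.51) courses, calls that did not pass without day 4 or day 5 and, for Sox2, without day 6. Gusb (beta-glucuronidase) was lower in the Mm343880 course (-0.50 ± 0.16, adjusted p = 0.02576), and Hexa, the hexosaminidase gene lost in Tay-Sachs disease, was lower in retinoic acid (-0.996 ± 0.236, adjusted p = 0.0003957), though not without day 6. Gaa, the acid alpha-glucosidase that breaks down glycogen, was higher in the Oct4 (0.50 ± 0.17) and Sox2 (0.49 ± 0.17) courses and lower in the Mm343880 course (-0.67 ± 0.17, adjusted p = 0.005366), where the call did not pass without day 4 or day 6. The other Gaa probe set passed in none of these courses, at 0.23, -0.04 and -0.34, and was lower in the Tcl1 course (-0.92, adjusted p = 0.0006488). The other Gusb probe set gave -0.45 in the Mm343880 course and did not pass. The remaining glycosidases were called in 0 of the 8 late comparisons by the probe sets used, with late differences in the knockdowns from -0.13 to 0.45 for Neu1 (a sialidase), -0.28 to 0.23 for Fuca1 (a fucosidase), -0.68 to 0.16 for Naglu and -0.57 to -0.14 for Idua, which both act on heparan sulfate. Other probe sets passed as lower for Neu1 in the Sox2 course (-0.62) and in retinoic acid (-0.90), for Fuca1 in the Mm343880 course (-0.78) and for Idua in the Tbx3 course (-0.72). Of the 11 glycosidases 0 were called higher in the Nanog, Esrrb, Tbx3, Tcl1 and Mm343880 courses and in retinoic acid, and 1 (Gaa) in the Oct4 and Sox2 courses; lower calls numbered 4 for Nanog, 3 for Oct4, 4 for Sox2, 2 for Esrrb, 3 for Tbx3, 2 for Tcl1, 5 for Mm343880 and 4 for retinoic acid. Over all genes, higher calls came to 5.05% to 12.1% and lower calls to 4.05% to 12.2% in the knockdowns, and to 27.5% and 23.5% in retinoic acid.

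**Figure D4:**
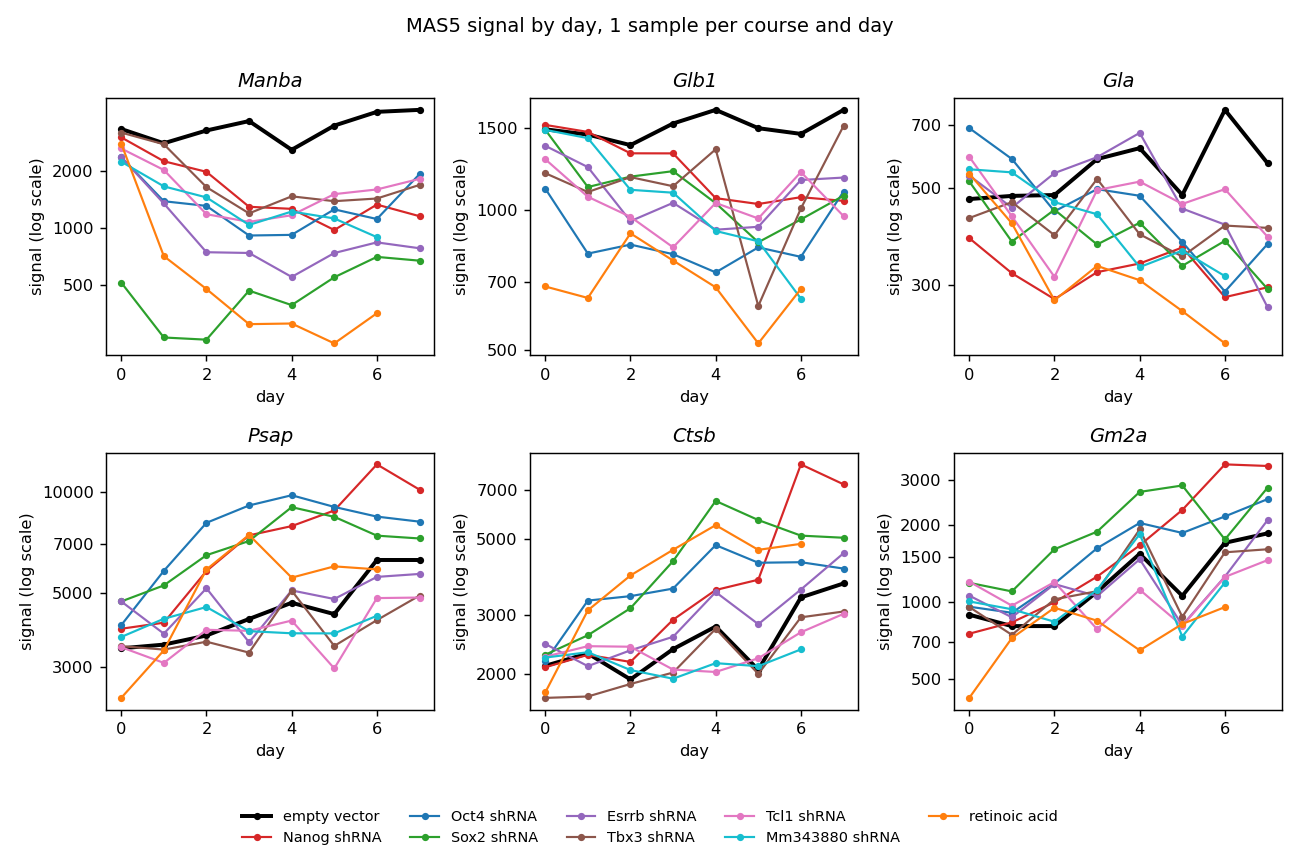
MAS5 signal (y axis, log scale) of 3 glycosidase genes (top: Manba, Glb1, Gla) and of Psap, Ctsb and Gm2a (bottom) by day (x axis), 1 sample per point and 1 line per course. The empty vector (thick black) is the highest line for Manba from day 1 on; for Psap the Nanog, Oct4 and Sox2 lines lie above it on every day.

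Psap and Ctsb rose after knockdown of Nanog, Oct4 and Sox2. Psap encodes prosaposin, the precursor of the saposins that activate sphingolipid hydrolases. Its signal in the empty vector was 3416.7, 3504.9, 3732.2, 4182.0, 4676.0, 4323.8, 6278.8 and 6277.9 on days 0 to 7. In the Nanog course it was 3909.7, 4076.0, 5819.6, 7438.3, 7929.0, 8828.9, 12130.8 and 10192.5. In the Oct4 course it was 4007.6, 5826.5, 8110.4, 9140.4, 9807.6, 9049.0, 8465.4 and 8175.9. All of these courses, the empty vector included, drifted upward, and both knockdowns were above the empty vector of the same day on all 8 days.

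The late difference of Psap was 0.92 ± 0.14 in the Nanog course (adjusted p = 1.389e-06, limma), 0.86 ± 0.14 in the Oct4 course (adjusted p = 4.654e-06) and 0.73 ± 0.14 in the Sox2 course (adjusted p = 4.812e-05). In the Esrrb, Tbx3, Tcl1 and Mm343880 courses it was 0.01, -0.27, -0.36 and -0.34, none of which passed with this probe set. The 12 differences between one of the first 3 knockdowns and one of the other 4, which do not involve the empty vector, ran from 0.721 to 1.283 for Psap, and all 12 passed (adjusted p at most 0.0001326). Ctsb, which encodes cathepsin B, also passed in all 12, from 0.403 to 1.374 (adjusted p at most 0.0475). Gm2a, the activator needed to break down ganglioside GM2, passed as higher in 11 of 12, Lgmn in 10 and Gaa in 9. These had the most higher pairs among the 38 genes. Scarb2 and Lipa had 0 higher and 6 lower pairs each, and Ctsc 5 higher and 4 lower. Against the empty vector Lgmn was higher in the Sox2 course alone and lower in the Tcl1 and Mm343880 courses. The 12 pairs reuse the same 7 courses and are not independent, and all genes were not counted this way. The Psap probe set used is 1 of the 100 control probe sets on which the arrays had been scaled; its copy on the B array differed by 0.024 ± 0.182 (log2, mean and SD over 70 samples). A further Psap probe set gave late differences of 1.04 in the Nanog, 0.70 in the Oct4 and 0.71 in the Sox2 course. Where the Psap probe set used did not pass, this one was lower in the Tcl1 (-0.43, adjusted p = 0.00799) and Mm343880 (-0.63, adjusted p = 6.354e-05) courses and higher in retinoic acid (0.41). The B array copy of Psap was lower in the Tbx3 (-0.39, adjusted p = 0.03071) and Tcl1 (-0.46, adjusted p = 0.01074) courses and higher in retinoic acid (0.49).

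The Ctsb signal in the empty vector was 2121.1, 2306.6, 1934.4, 2376.0, 2768.8, 2064.7, 3373.5 and 3708.2 on days 0 to 7. In the Sox2 course it was 2286.4, 2609.7, 3135.3, 4314.5, 6489.9, 5700.5, 5129.2 and 5055.8. From day 3 on the Sox2 course was above every empty vector sample. The Nanog course lay between 2100.5 and 3803.6 up to day 5 and reached 8315.9 and 7264.4 on days 6 and 7. The late difference was 1.11 ± 0.14 for Sox2 (adjusted p = 5.627e-08, limma), 0.81 ± 0.14 for Nanog (adjusted p = 3.134e-05) and 0.70 ± 0.14 for Oct4 (adjusted p = 0.0002653). A second Ctsb probe set gave 1.134, 1.198 and 0.753 in these courses, and was also higher in the Esrrb (0.56) and lower in the Mm343880 (-0.79) course, while a further one passed in none of the 8 (0.90 to 1.02 in the Sox2, Nanog and Oct4 courses). Gm2a was higher in the Nanog (0.71 ± 0.24, adjusted p = 0.02559) and Sox2 (0.80 ± 0.24, adjusted p = 0.01038) courses. The Oct4 value of 0.53 did not pass, nor did the Nanog value without day 3, 5 or 6, and in retinoic acid Gm2a was lower (-0.75 ± 0.24, adjusted p = 0.007621). The other Gm2a probe sets gave 0.50 and 0.73 in the Nanog and 0.26 and 0.14 in the Sox2 course, none passing, and -0.96 (adjusted p = 0.001788) and 0.66 (not passing) in retinoic acid. Of these, 1 was also lower in the Mm343880 course (-1.23, adjusted p = 0.0008682), where the Gm2a probe set used gave -0.285 and did not pass.

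Cathepsins C and L followed other patterns. Ctsc encodes cathepsin C, a dipeptidyl peptidase that activates serine proteases. In the empty vector its signal was 287.7, 251.2, 244.4, 257.3, 439.2, 341.5, 481.6 and 620.7 on days 0 to 7. In the Sox2 course it was 1200.5, 1157.9, 1586.5, 1855.6, 1765.4, 1096.9, 1853.8 and 1800.9, above every empty vector sample from day 0 on. In the Tcl1 course it was 259.9, 337.2, 440.8, 884.7, 1178.7, 697.0, 986.8 and 1088.3. In the Oct4 course it was 208.2, 119.2, 192.2, 227.4, 247.6, 297.9, 215.3 and 324.5, below the empty vector of the same day throughout. The Tcl1 course thus began near the empty vector and was above it on every day from day 1, while the Sox2 course began high. Late differences were 1.75 ± 0.21 for Sox2 (adjusted p = 1.785e-08, limma), 1.09 ± 0.21 for Tcl1 (adjusted p = 0.000492), 0.88 ± 0.21 for Nanog (adjusted p = 0.001859) and 0.68 ± 0.22 for Mm343880 (adjusted p = 0.02759). The Oct4 value of -0.52 ± 0.21 did not pass against the empty vector, but against the mean of the other knockdowns Ctsc was lower in the Oct4 course (-1.34 ± 0.16, adjusted p = 3.027e-08). Retinoic acid gave a transient rise, from 339.9 on day 0 to 1468.3 on day 3 and 385.9 on day 6. Without day 5 the Nanog and Mm343880 calls did not pass, nor did the latter without day 6. The other Ctsc probe set gave -0.43, 0.05, -0.50 and 0.10 in the Nanog, Sox2, Tcl1 and Mm343880 courses, none passing.

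Ctsl, which encodes cathepsin L, was the single lysosomal gene that rose over time in the empty vector course itself (0.71 ± 0.17 from days 0 and 1 to days 4 to 6, adjusted p = 0.0274), a call that did not pass without any of days 0 to 4 or day 6. Its signals there were 2141.0, 1947.5, 2125.2, 3176.7, 3789.9, 2316.2, 4710.6 and 4717.1 on days 0 to 7. In the Sox2 course they were 3997.5, 5807.9, 5946.2, 6385.7, 6516.1, 5979.4, 7140.9 and 6032.8, with day 0 well below the rest. Ctsl was higher than in the empty vector in the Sox2 (0.88 ± 0.15, adjusted p = 1.278e-05), Oct4 (0.64), Nanog (0.59), Esrrb (0.52) and Mm343880 (0.51) courses. Apart from Sox2, these calls did not pass without day 5, the day on which the empty vector was at 2316.2, and the Mm343880 call did not pass without day 6 either. In retinoic acid Ctsl rose from 2691.0 on day 0 to 8574.2 on day 3 and stood at 5678.1 on day 6 (late difference 0.89 ± 0.15, adjusted p = 2.742e-06). The other Ctsl probe set gave values from -1.32 to -0.56 in these 6 courses, none passing.

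Lgmn encodes legumain, the asparaginyl endopeptidase that processes cathepsins, and it was called in opposite directions. In the Sox2 course its signal was 1630.4, 1691.9, 1663.6, 1956.7, 2529.0, 1715.2, 1643.9 and 1605.4. In the Tcl1 course it was 254.5, 259.0, 516.5, 370.3, 619.1, 252.7, 379.1 and 560.7. The empty vector lay between them on days 0 to 5, at 622.4, 884.8, 671.4, 852.8, 864.9 and 650.8, and reached 1706.7 and 1441.9 on days 6 and 7. Late differences were 0.98 ± 0.25 for Sox2 (adjusted p = 0.002707), -1.19 ± 0.25 for Tcl1 (adjusted p = 0.00116) and -0.80 ± 0.25 for Mm343880 (adjusted p = 0.02618), the last not passing without day 2, 3 or 6. The differences were present on days 0 and 1, at 1.16 ± 0.30 for Sox2 (adjusted p = 0.01786) and -1.17 ± 0.30 for Tcl1 (adjusted p = 0.03515). Sox2 minus Tcl1 came to 2.16 and Sox2 minus Mm343880 to 1.77.

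Of the remaining proteases, Ctsd, which encodes the aspartic protease cathepsin D, was higher in the Sox2 (0.65 ± 0.13, adjusted p = 9.321e-05) and Oct4 (0.53 ± 0.13, adjusted p = 0.001633) courses. Tpp1, a tripeptidyl peptidase lost in a form of Batten disease, was called higher in the Esrrb (0.63), Tcl1 (0.56), Nanog (0.51), Tbx3 (0.42) and Sox2 (0.37) courses and in retinoic acid (1.22 ± 0.14, adjusted p = 6.147e-10). A second Tpp1 probe set gave 1.53 in retinoic acid but only -0.13 to 0.14 in the knockdowns, and the Tbx3 call did not pass without any of days 2 to 7, the Esrrb and Tcl1 calls not without day 5, and the Tcl1 call not without day 6. Ctsz, a carboxypeptidase, was lower in retinoic acid (-1.04 ± 0.15, adjusted p = 8.723e-08). Another Ctsz probe set was higher in the Nanog course (0.35, adjusted p = 0.04431). By the probe sets used, Ctsa and Ctsh, a further carboxypeptidase and an aminopeptidase, passed in 0 of the 8 late comparisons. Their knockdown values ran from -0.30 to 0.37 and from -0.43 to 0.19. Another Ctsa probe set was lower in retinoic acid (-0.47, adjusted p = 0.04646), where the one used gave 0.28 and did not pass. Of 9 proteases, those called higher numbered 6 for Sox2, 4 for Nanog, 3 for Oct4, 2 for Esrrb, 1 for Tbx3, 2 for Tcl1, 2 for Mm343880 and 3 for retinoic acid, and the lower calls were Lgmn in the Tcl1 and Mm343880 courses and Ctsz in retinoic acid. The shares over all genes are those given for the glycosidases.

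**Figure D5:**
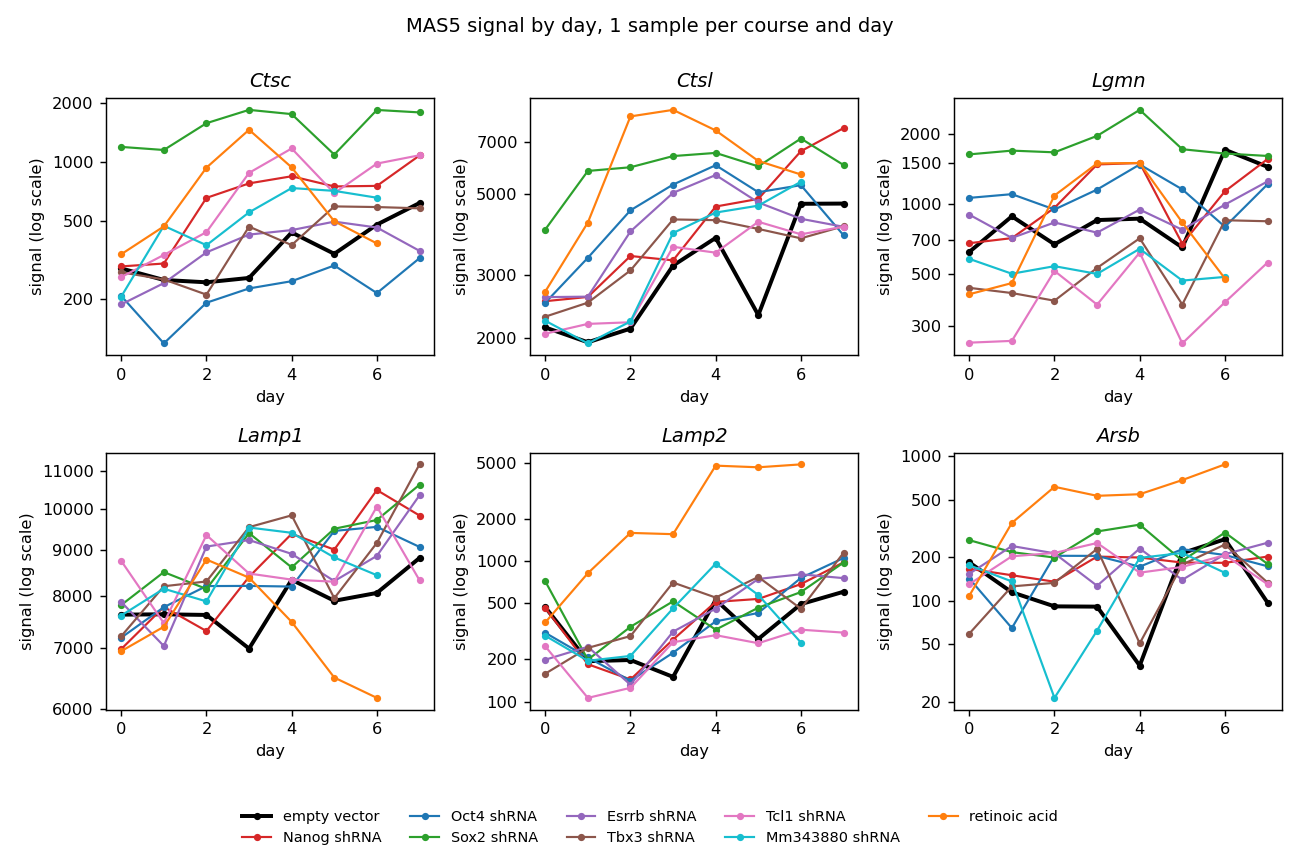
MAS5 signal (y axis, log scale) of Ctsc, Ctsl, Lgmn, Lamp1, Lamp2 and Arsb by day (x axis), 1 sample per point and 1 line per course. The Sox2 line is the highest for Ctsc and the Tcl1 line the lowest for Lgmn on most days, and the retinoic acid line leaves the others for Lamp2, reaching 4782.5 on day 4, and for Arsb.

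Among the sulfatases, lipases and related hydrolases, Smpd1 (acid sphingomyelinase) was higher in the Sox2 (0.88 ± 0.14, adjusted p = 2.905e-06), Oct4 (0.58 ± 0.14, adjusted p = 0.001607) and Esrrb (0.51 ± 0.14, adjusted p = 0.008236) courses, the Oct4 and Esrrb calls not passing without day 5. Acp2, the lysosomal acid phosphatase, was higher in the Sox2 (0.73 ± 0.17, adjusted p = 0.001319) and Nanog (0.59 ± 0.17, adjusted p = 0.009968) courses, and the Nanog call did not pass without day 4, 5 or 6. The other Smpd1 probe set gave 0.76, 0.47 and 0.39 in the Sox2, Oct4 and Esrrb courses, none passing. The other Acp2 probe sets gave 0.29 and 0.29 in the Sox2 course, neither passing, and 0.43 (adjusted p = 0.0294) and 0.17 (not passing) in the Nanog course, and 1 of them was also higher in the Esrrb (0.76), Tcl1 (0.46) and Mm343880 (0.43) courses. Lipa, the acid lipase that frees cholesterol from its esters, was called higher in 5 knockdowns, from 0.72 in the Tcl1 course to 0.98 in the Mm343880 course. Its empty vector signals on days 4 and 5 were 207.5 and 201.4, the lowest of that course. The other Lipa probe sets gave -0.55 to 0.17 in the knockdowns, and none of the 5 calls passed on the mean of all Lipa probe sets. Asah1 (acid ceramidase) was lower in the Mm343880 course (-0.54 ± 0.18, adjusted p = 0.03814), a call that did not pass without any of days 1 to 6. Ids (iduronate 2-sulfatase, which acts on heparan and dermatan sulfate) was higher in the Sox2 course (0.79 ± 0.30, adjusted p = 0.04722), where the other Ids probe sets gave -0.20 and -0.13 and did not pass. Arsa, the sulfatase that acts on sulfatide, passed in 0 of the 8 late comparisons. In the knockdowns its values ran from -0.52 to 0.18, those of Ppt1 from -0.32 to 0.38 and those of Arsb from 0.04 to 0.86. Of the 8 genes in this role 4 were called higher for Sox2, 2 for Esrrb and 1 for each other knockdown, and the 1 lower call was Asah1, beside the same shares over all genes.

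Of the 5 activators and lipid transfer proteins, Psap and Gm2a are described above. Grn encodes progranulin, a precursor of lysosomal granulins, and was higher in the Oct4 course (0.52 ± 0.13, adjusted p = 0.004116), without day 5 not passing. Of the other Grn probe sets 1 gave 0.72 (adjusted p = 0.01629) and 1 gave 0.33, which did not pass. The latter probe set was lower in the Tcl1 course (-0.59, adjusted p = 0.02174), where the one used gave -0.03 and did not pass. Npc1 and Npc2, which export cholesterol from the lysosome, were called in 0 of 7 knockdowns. Their late differences there ran from -0.17 to 0.22 for Npc1 and from -0.16 to 0.28 for Npc2. Another Npc2 probe set was lower in the Nanog course (-0.48, adjusted p = 0.04316).

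Of 5 membrane proteins, 2 were higher in the Nanog course, beside 12% of all genes, and 2 lower in the Oct4 course, beside 10.7%. In the Sox2 course 1 was higher and 1 lower (12.1% and 12.2% of all genes). In the Esrrb, Tbx3, Tcl1 and Mm343880 courses 0 were called. Lamp1, a heavily glycosylated protein that makes up much of the lysosomal membrane, had signals between 6998.0 and 8817.2 in the empty vector over days 0 to 7. Late differences in the knockdowns ran from 0.12 to 0.24, of which only that in the Nanog course passed (0.24 ± 0.09, adjusted p = 0.04917). Those of Lamp2 ran from -0.33 to 0.64, and none passed with the probe set used. Other Lamp2 probe sets were higher in the Sox2 course (0.97, adjusted p = 0.001295, and 0.72, adjusted p = 0.02779) and in the Tbx3 course (1.31, adjusted p = 0.01484). Cln3, a membrane protein lost in juvenile Batten disease, was higher in the Nanog (0.48 ± 0.15) and Sox2 (0.43 ± 0.15) courses, where its other probe set gave 0.25 and 0.39 and did not pass. Scarb2, a lysosomal integral membrane protein, was lower in the Oct4 (-0.83 ± 0.21, adjusted p = 0.003354) and Sox2 (-0.71 ± 0.21, adjusted p = 0.009437) courses, the latter not without day 4 or day 5. In the Oct4 course its signals were 1124.1, 787.2, 554.7, 640.9, 706.2, 625.9, 604.7 and 773.3, and a second probe set gave -0.83 and -0.82 in these courses. Cd68, the macrophage form of the LAMP family, was lower in the Oct4 course (-0.67 ± 0.23, adjusted p = 0.03266), a call lost without day 2, 4, 5, 6 or 7.

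Retinoic acid gave the most calls, as it did over all genes. It differs from the empty vector in LIF, transduction and sorting as well as in the agent, and these cannot be told apart. Within its own course, from days 0 and 1 to days 4 to 6, 22 lysosomal genes rose and 3 (Manba, Cd68 and Gla) fell, beside 18.6% and 14.9% of all genes. The members' median change was 0.629. Without day 0 the counts were 13 and 1, and without day 6 the rises were 6. Lamp2, the LAMP protein needed for chaperone-mediated autophagy, rose furthest. Its signals were 365.4, 819.5, 1587.2, 1554.5, 4782.5, 4654.4 and 4882.4 on days 0 to 6, against 149.7 to 604.7 in the empty vector. No sample after day 0 overlapped with the empty vector. The late difference was 3.29 ± 0.29 (adjusted p = 5.841e-13, limma), and the 3 other Lamp2 probe sets gave 2.43, 2.24 and 2.93.

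Of the 8 sulfatases, lipases and related hydrolases, 7 were above the empty vector late in retinoic acid, beside 27.5% of all genes. Within that course 6 of the 8 rose over time, beside 18.6% of all genes. Arsb (arylsulfatase B, which acts on dermatan sulfate) went through 108.2, 344.8, 612.8, 530.8, 544.5, 682.1 and 875.5 on the B array, and its late difference was 2.15 ± 0.38 (adjusted p = 4.689e-06); a second, dimmer probe set gave 0.34 and did not pass. Lipa rose from 309.8 to 1481.4 on day 3 and 1180.9 on day 6, with a late difference of 1.99 ± 0.18 (adjusted p = 4.813e-13) and 0.94 and 0.89 by its other probe sets. Ids was at 561.9 on day 0 against 396.4 in the empty vector and stayed above it, with a late difference of 2.15 ± 0.30 (adjusted p = 4.722e-08). The other Ids probe sets gave -0.51 and -0.12, neither of which passed. Ppt1 (palmitoyl-protein thioesterase, 0.90), Acp2 (0.87), Asah1 (0.79) and Smpd1 (0.60) were also higher, the Ppt1 call not without day 6. Scarb2 (0.84 ± 0.21, adjusted p = 0.0008034), Npc1 (0.67 ± 0.19, adjusted p = 0.003006) and Ctsb (0.88 ± 0.14, adjusted p = 1.369e-06) were higher, whereas Lamp1 (-0.26 ± 0.09, adjusted p = 0.01751), Cln3 (-0.62 ± 0.15, adjusted p = 0.0005338) and Cd68 (-1.01 ± 0.23, adjusted p = 0.0002077) were lower, Cd68 not without day 6. A second Scarb2 probe set gave -0.14 in retinoic acid and did not pass, and the other Cln3 probe set gave 0.38, of opposite sign, and did not pass. Of the other Ppt1 probe sets 1 passed (1.14) and 3 did not (0.04 to 0.23).

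Over time within the other courses, 1 gene (Ctsl) rose and 0 fell in the empty vector, beside 0.536% and 0.268% of all genes; the members' median change there was 0.26, so part of a rise within a knockdown course was also present in the control. In the empty vector 3 or 0 members rose under other settings, and 7 without day 5. In the Nanog course 9 rose and 2 fell (6.35% and 4.53% of all genes), led by Gm2a (1.48 ± 0.27), Psap (1.18 ± 0.15) and Ctsc (1.17 ± 0.24), with Manba (-1.17 ± 0.19) and Glb1 (-0.47 ± 0.16) falling; the Glb1 fall was lost when any single day was left out. In the Oct4 course 7 rose and 2 fell (4.35% and 4.05%), and in the Sox2 course 8 rose and 0 fell (4.53% and 3.19%), with Ctsb at 1.22 ± 0.16. Manba and Ctsc, already apart on days 0 and 1, are not among the changes of the Sox2 course. In the Esrrb course 6 rose and 1 fell (5.04% and 1.63%), in the Tbx3 course 4 and 1 (3.7% and 1.04%), in the Tcl1 course 3 and 0 (1.72% and 0.556%), and in the Mm343880 course 5 and 4 (5.65% and 3.59%). Without day 0 rises numbered 2 for Nanog, 0 for Oct4, 1 for Sox2, 2 for Esrrb, 0 for Tbx3, 1 for Tcl1 and 1 for Mm343880, and falls numbered 0 for Oct4 and 0 for Mm343880. Without day 1 the Sox2 rises were 3 and the Mm343880 falls 2, and without day 2 or day 4 the Sox2 rises were 5. Without day 4 the Tbx3 falls were 2 and the Tcl1 falls 1, without day 5 the Tbx3 rises were 12 and the Mm343880 rises 8, and without day 6 Mm343880 had 0 of either. The Oct4 falls were 1 without day 1, 5 or 6.

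The other genes of the pathway were taken from lists by function, and were called in both directions. Of 15 vacuolar ATPase subunits tested, the pump that acidifies the lysosome, at most 2 were called in either direction in each knockdown, and 2 were higher and 8 lower in retinoic acid, where 27.5% and 23.5% of all genes were. In the knockdowns 5.05% to 12.1% of all genes were called higher and 4.05% to 12.2% lower. Among the latter Atp6v0b had signals of 1190.2, 1301.9, 1645.4, 1354.9, 1052.8, 931.1 and 1161.2, against 2399.8 to 4123.4 in the empty vector (late difference -1.70 ± 0.16, adjusted p = 6.653e-12). For the sorting of lysosomal enzymes (14 tested), 4 were higher and 5 lower in retinoic acid, beside the same shares, and Igf2r, the large mannose 6-phosphate receptor, rose from 994.9 on day 0 to 4511.0 on day 6 (1.997 ± 0.157, adjusted p = 1.441e-14). Sorl1, a sorting receptor, was lower in 6 of 7 knockdowns, from -0.82 in the Sox2 course to -1.77 ± 0.22 in the Nanog course (adjusted p = 2.918e-08). Of 13 further hydrolases tested, 1 to 2 were higher and 3 lower in the Nanog, Oct4 and Sox2 courses. Ctsf (cathepsin F) was lower there, by -1.27, -1.56 and -1.42, and Scpep1 (a serine carboxypeptidase) by -0.69, -1.22 and -0.76.

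Among 16 regulators and mTORC1 docking proteins tested, 4 were higher and 8 lower in retinoic acid (27.5% and 23.5% of all genes), and 0 to 2 higher and 1 to 5 lower in the knockdowns (5.05% to 12.1% and 4.05% to 12.2% of all genes). Tfeb signals in retinoic acid were 740.2, 124.7, 124.4, 293.5, 95.8, 169.5 and 253.0, against 434.2 to 1206.8 in the empty vector (late difference -2.12 ± 0.27, adjusted p = 6.891e-09). Tfeb was also lower in the Tcl1 (-1.36 ± 0.27), Tbx3 (-1.26 ± 0.27) and Mm343880 (-1.17 ± 0.27) courses, and was 0.09, 0.45 and -0.03 in the Nanog, Oct4 and Sox2 courses, none of which passed. Rragd, a Rag GTPase that docks mTORC1 at the lysosome, was higher in 5 knockdowns, up to 1.35 ± 0.25 in the Sox2 course (adjusted p = 5.516e-05). Of 4 protease inhibitors tested, Cstb (cystatin B, an inhibitor of cathepsins) was higher in the Nanog (0.98 ± 0.11, adjusted p = 2.499e-09), Sox2 (0.92 ± 0.11), Oct4 (0.80 ± 0.11), Mm343880 (0.54 ± 0.11) and Esrrb (0.32 ± 0.11) courses and lower in retinoic acid (-0.42 ± 0.11, adjusted p = 0.001131). Of 19 autophagy genes, 1 to 5 were higher and 0 to 2 lower in the knockdowns; Sqstm1, the p62 cargo receptor, was higher in the Sox2 (1.06 ± 0.12), Nanog (0.87 ± 0.12), Oct4 (0.66 ± 0.12) and Esrrb (0.44 ± 0.12) courses. Of 13 further membrane proteins, Cd164 (a sialomucin) was higher in the Nanog (1.48), Sox2 (1.32) and Oct4 (0.72) courses and in retinoic acid (1.90).

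Markers of other cell types moved with some of these results, and their part in them was not tested. A marker was tested if its signal was above the table median on at least 3 arrays. Dim markers, such as Postn (fibroblast, mean 81.1, highest 1669.7) and Gata3 (trophoblast, mean 127.5, highest 840.3), could pass only where they were high. The numbers of tested markers called higher are therefore partly set by this filter. Of 10 stem cell markers 9 were lower in the Nanog course, 10 in the Oct4, Sox2 and retinoic acid courses, 6 in the Mm343880, 5 in the Esrrb, 3 in the Tcl1 and 2 in the Tbx3 course. Over all genes, lower calls came to 4.05% to 12.2% in the knockdowns and to 23.5% in retinoic acid. The list holds Nanog, Pou5f1, Sox2 and Esrrb, so the counts in those knockdowns include the hairpin's own target. The summed signal of 11 trophoblast markers ran from 1552.0 to 4577.7 in the empty vector and reached 69948.3 in the Nanog, 46746.7 in the Oct4, 51753.4 in the Sox2 and 50520.1 in the Esrrb course, with 7, 7, 6 and 5 of 7 tested markers higher. It reached 25770.0 in the Tbx3, 20938.4 in the Mm343880, 17802.2 in the Tcl1 and 17429.5 in the retinoic acid course, with 3, 4, 4 and 4 higher. Over all genes, higher calls came to 5.05% to 12.1% in the knockdowns and to 27.5% in retinoic acid. The largest signals in this sum were those of keratins, with Krt18 up to 38929.6, Krt19 up to 17710.8 and Krt7 up to 8727.9. Of the 11 markers 5 had a mean below the A array median, among them Elf5 (at most 268.0) and Tpbpa (at most 448.5). The placental cathepsins Ctsj and Ctsq had mean signals of 41.2 and 47.8 and highest signals of 501.0 and 182.3. For 12 visceral and parietal endoderm markers the sum ran from 2814.6 to 5496.6 in the empty vector and up to 20854.4 in the Nanog and 36763.6 in the retinoic acid course, with 6 of 10 tested higher in each. Its highest values in the other knockdowns ran from 5471.0 (Tbx3) to 9115.2 (Sox2), with 0 to 3 of the 10 higher. Afp and Apoa1 had signals of at most 228.2 and 183.5. For 9 fibroblast markers the sum ran from 1685.7 to 3554.9 in the empty vector and up to 40424.0 in retinoic acid, where 7 of 8 tested were higher. It reached 8011.8 in the Tbx3, 6956.9 in the Esrrb and 5853.2 in the Sox2 course, with 2, 3 and 3 higher and 1, 1 and 2 lower. In the Mm343880, Tcl1, Nanog and Oct4 courses it reached 4212.6, 3577.6, 2477.8 and 2043.2, with 1, 0, 0 and 0 higher and 0, 1, 2 and 2 lower. For 10 macrophage and blood markers the sum ran from 2509.7 to 3424.2 in the empty vector and between 1575.7 and 3747.7 elsewhere, with 0 or 1 of 5 tested higher in any course; 8 of the 10 had a mean below the A array median, and Ptprc (CD45) never exceeded 112.6.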

How the data were processed

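Per the submitters' processing notes, the authors made signals with MAS5; the deposited values are linear intensities, with no program version stated. Precision is limited by how few arrays there are. Of the probe sets, 35041 had 1 gene in the platform annotation, 936 had several and 9160 none; probe sets of several genes and those named as the manufacturer's controls (AFFX) were left out, while gene probe sets present on both arrays for scaling stayed in. Signals became log2(signal + the table's 20th percentile), 63.3 on A and 21.9 on B. Genes needed a signal above the table median (283.3 on A, 89.1 on B) on at least 3 arrays. limma 3.58.1 in R 4.3.3 fitted all 70 samples with a natural cubic spline of day (3 degrees of freedom) per course, each table by itself. The early days were 0 and 1, the late days 4, 5 and 6. P-values were adjusted by Benjamini-Hochberg over both tables. Scripts were tested on simulated data. The rule for named genes was every member by value or range, in full up to 6 rises and 6 falls a late difference and 4 and 4 a change over time, up to 4 passing genes and 2 others a pathway list, and the targeted genes. The members and lists were chosen with earlier results of these data known. Alternatives covered the pseudocount, filter, normalization, probe set, spline, day as a block, the samples fitted and each day left out.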

Additional observations from a re-analysis of the deposited data

Results flagged for a closer look

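Within a course, 3 of 99 tests found a sample far from the others. The tests covered the median of the lysosomal genes and selected single genes in each course. Chance gives about 1 in 20 for samples without a trend, and samples of a time course can drift. Glb1 was at 621.4 on day 5 of the Tbx3 course, Ctsl at 3997.5 on day 0 of the Sox2 course, and Lgmn at 2529 on day 4 of the Sox2 course.

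Some genes were called in opposite directions in different courses. Pairs of courses were picked by those calls and are listed only where their difference also passed in limma. That the listed differences passed is therefore no independent support. For Lgmn, Sox2 minus Tcl1 was 2.161 and Sox2 minus Mm343880 was 1.772 (log2). For Gaa, Oct4 minus Mm343880 was 1.165 and Sox2 minus Mm343880 was 1.158, although its other probe set passed in none of these courses. For Scarb2, retinoic acid minus Oct4 was 1.662 and retinoic acid minus Sox2 was 1.543, although its second probe set did not pass in retinoic acid. Gm2a differed by 1.466 between Nanog and retinoic acid and by 1.553 between Sox2 and retinoic acid, although its other probe sets did not pass in the Nanog and Sox2 courses. Cln3 differed by 1.1 between Nanog and retinoic acid and by 1.05 between Sox2 and retinoic acid, although its other probe set gave 0.383 in retinoic acid and did not pass. Lamp1 was 0.501 higher in the Nanog than in the retinoic acid course, and Asah1 was 1.329 higher in retinoic acid than in the Mm343880 course.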

How the results depend on the processing

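Of 115 calls on named genes, 115 passed with day as a block, 113 each with a pseudocount of 1, no filter, quantile normalization, the probe set chosen by percentile rank and a spline with 2 degrees of freedom, 105 on the mean of all probe sets and 99 when only the courses compared were fitted. Leaving out 1 day kept between 81 (day 6) and 111 (day 7). The change of Ctsa in the Sox2 course reversed to -0.052 with the percentile rank probe set. The cause was not tested. Late counts that moved by over 1.5 times were, for Nanog lower, 7 under quantile normalization; for Mm343880, 1 higher with only the courses compared and 11 lower on the mean of probe sets; for Tbx3 higher, 1 under quantile normalization, on the mean of probe sets or with only the courses compared and 4 with the 2 df spline; and for Tcl1 lower, 5 on the mean of probe sets or with the 2 df spline. Rises over time were 3 (day as a block) and 0 (only the courses compared) in the empty vector, 10 for Tbx3 with day as a block, and 3 for Sox2 and 3 for Mm343880 with only the courses compared. Falls were 2 for Mm343880 and 1 for Oct4 with only the courses compared, 1 for Sox2 under quantile normalization, 1 for Tcl1 under quantile normalization, the 2 df spline or day as a block, and 1 for Nanog under a pseudocount of 1, no filter, the percentile rank probe set, the 2 df spline or only the courses compared. With 1 day left out, late higher counts ran from 3 to 9 for Nanog, 3 to 7 for Oct4, 9 to 16 for Sox2, 1 to 4 for Esrrb, 1 to 2 for Tbx3, 1 to 3 for Tcl1, 0 to 3 for Mm343880 and 7 to 14 for retinoic acid. Late lower counts ran from 3 to 6 for Oct4, 3 to 5 for Sox2, 1 to 7 for Mm343880 and 5 to 9 for retinoic acid. Rises ran from 0 to 7 in the empty vector, 2 to 11 for Nanog, 0 to 8 for Oct4, 1 to 8 for Sox2, 2 to 8 for Esrrb, 0 to 12 for Tbx3, 1 to 3 for Tcl1, 0 to 8 for Mm343880 and 6 to 24 for retinoic acid. Falls were 1 for Nanog, and ran from 0 to 2 for Oct4, 1 to 2 for Tbx3, 0 to 1 for Tcl1, 0 to 4 for Mm343880 and 1 to 3 for retinoic acid.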

Other observations

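On days 0 and 1 a few further lysosomal genes already differed from the empty vector in limma. Gusb was higher in the Sox2 course (0.71 ± 0.19, adjusted p = 0.0201), where its late difference did not pass. Hexa was higher in the Oct4 course (0.94 ± 0.28, adjusted p = 0.04719). In retinoic acid, where cells had been neither transduced nor sorted, Ctsd (-0.62 ± 0.15), Ctsz (-0.64 ± 0.18) and Fuca1, a fucosidase (-0.49 ± 0.15), were lower and Ids (1.52 ± 0.36) was higher.

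Hexa rose over time in the Tbx3 (1.35 ± 0.26), Esrrb (1.21 ± 0.26) and Mm343880 (1.18 ± 0.26) courses, and Lamp2 in the Tbx3 (1.47 ± 0.33) and Esrrb (1.46 ± 0.33) courses. In the empty vector the change of Hexa was 0.89 ± 0.26 and did not pass (adjusted p = 0.09218). With the probe sets used, neither gene had a late difference that passed in these courses, though another Lamp2 probe set was higher in the Tbx3 course (1.31, adjusted p = 0.01484).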
